A study of Mus musculus with 8 samples.

Results

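The nucleolar ribosome assembly factors are the proteins that make, fold, cut and export the precursors of the ribosome. Their 47 genes were described here in the epidermis of newborn mice that express a mutant mitochondrial helicase. The names were chosen by function, with earlier results of these arrays known. Where a gene had several probe sets, the one used was selected on its mean log2 level over the 8 arrays, and only probe sets that name a single gene were taken. On that rule 45 of the 47 genes were measured, out of 22180 genes in all. The probe sets of Fbl and Tsr1 also name a second gene, so both are left out of every count.

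The tested arrays came from 4 K320E-TwinkleEpi samples (K320E below). In these, expression of the K320E mutant of the mitochondrial DNA helicase Twinkle depends on the K14 promoter, which is active in basal keratinocytes. Arrays of whole epidermis do not show in which cells the mutant was made. The 4 control arrays came from newborns labelled R26-K320E-TwinkleloxP/+, so both groups carry a K320E-Twinkle allele. All samples were C57BL/6J epidermis at postnatal day 0, and the total RNA was labelled with biotin. Nothing in the labels states that each array is its own animal or litter, so every p-value covers the spread between these samples alone, and that spread may be technical.

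Ribosomes are built in the nucleolus. RNA polymerase I transcribes a long precursor RNA, small nucleolar ribonucleoproteins (snoRNPs) guide its chemical modification and early folding, and separate sets of factors then shape the small (40S) and the large (60S) subunit. Demand for these factors is high in growing and dividing cells, and many of their genes are known targets of the transcription factor MYC. In the epidermis it is the basal keratinocytes that divide.

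Values are log2 intensities as deposited, between 4.31 and 13.1 over the arrays. Array medians lay between 6.06 and 6.11. Twnk, the gene of Twinkle, measured 8.91 to 9.28 in K320E and 6.55 to 6.95 in controls, so the arrays followed their labels; its probe set does not tell mutant from normal transcript. Keratinocyte markers were high: suprabasal markers averaged 11.86 to 12.004 in K320E and 11.83 to 12.03 in controls. In whole epidermis, fewer cells of a type and less RNA per cell cannot be told apart. Sex-linked transcripts varied within the groups. The Y-linked mean was 8.64 in K320E array 3 and 9.05 in control array 2, against 4.75 to 4.82 in the others. Xist was 6.17 in control array 3, whose Y-linked mean was low, and 9.27 in control array 2, whose Y-linked mean was high.

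Of the 45 assembly factors, 3 rose in K320E epidermis past the threshold used here, and the groups of 25 overlapped. By sign alone, 42 had positive differences, with a median of 0.22 on the log2 scale, while over all genes the median was -0.00052 and 49.8% were positive. The differences were small, from -0.18 for Npm1 to 0.55 for Nop2. Nop2, Bysl and Pdcd11 rose past the threshold (limma over all genes, Benjamini-Hochberg adjusted p under 0.05), and 0 fell. Over all genes the same threshold called 0.685% higher and 0.194% lower. At an unadjusted limma p under 0.05, 26 members were higher and 1 was lower, against 8.77% higher and 6.06% lower over all genes. All 4 K320E values lay above all 4 control values for 20 of the 45 members, or 44.4%, against 5.5% of all genes. The opposite order held for 0 members and 3.75% of all genes. Since the names were drawn up with these arrays known, the shares describe the list and are not independent evidence of its direction. The members were also brighter, with a median level of 8.71 against 6.36 over all genes, and the shares were not matched for level. Within the list, the median difference was 0.27 for the 14 members under a level of 8 and 0.05 for the 7 at 10 and over. Between these it was 0.22 for levels of 8 to 9 and 0.20 for 9 to 10. Over all genes, the medians from the lowest to the highest of these levels were -0.0047, 0.044, 0.020 and 0.0038.

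**Figure D1:**
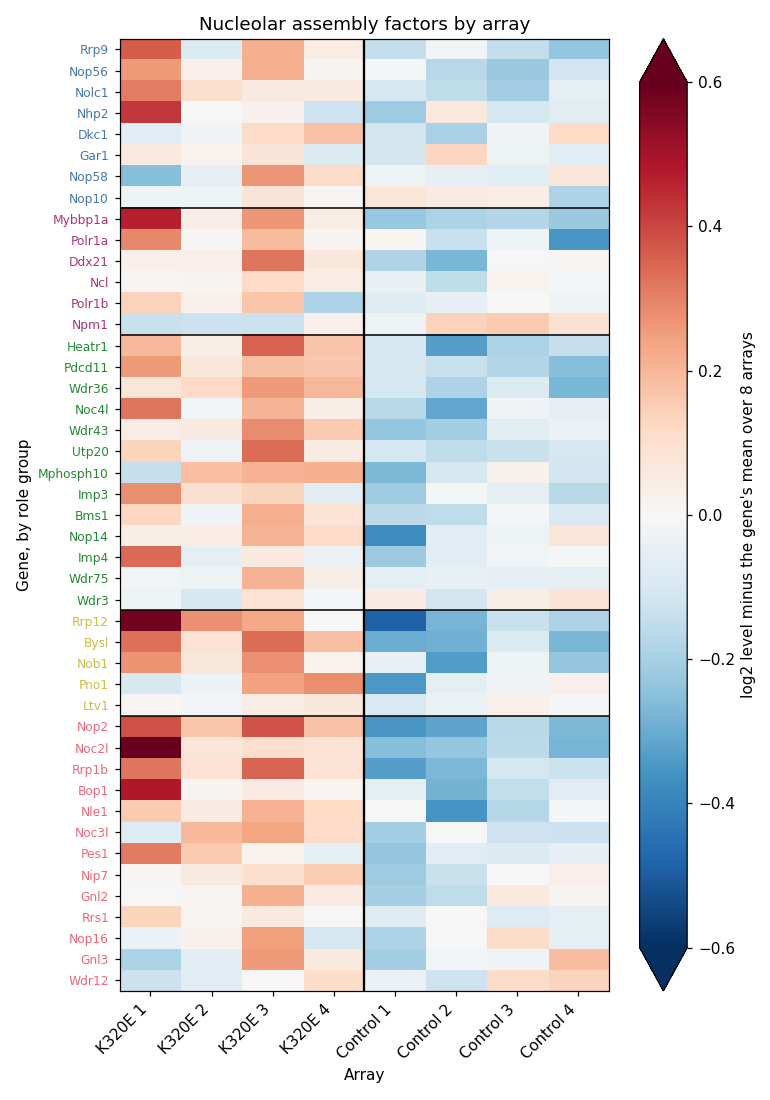
Level of each of the 45 measured factors (rows, by role group, name colour as in the plot of differences) on each array (columns, 4 K320E arrays left of the line and 4 controls right of it). Colour gives the log2 level minus the gene's mean over the 8 arrays; most rows are redder left of the line than right of it, and Npm1 is blue on 3 of the 4 K320E arrays.

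Nop2, the methyltransferase that modifies the large subunit RNA and is needed for its processing, had the largest difference of all the members. Its probe set (17463108) measured 8.29, 8.08, 8.29 and 8.09 in K320E, against 7.56, 7.59, 7.74 and 7.64 in controls. All 4 K320E arrays lay above all 4 controls. Nop2 rose by 0.55 (SE 0.07, limma adjusted p = 0.013), or 1.47-fold. Bysl (17345696), which binds late precursors of the small subunit and leaves before they mature in the cytoplasm, measured 7.82, 7.57, 7.82 and 7.67 in K320E and 7.19, 7.20, 7.40 and 7.21 in controls. Its groups did not overlap, although control array 3 came closest. Bysl rose by 0.47 (SE 0.08, limma adjusted p = 0.033), or 1.39-fold. Pdcd11 (17360128), the homologue of yeast Rrp5, a long RNA-binding protein used in making both subunits, measured 8.16, 7.97, 8.08 and 8.06 in K320E and 7.81, 7.77, 7.73 and 7.65 in controls. It rose by 0.33 (SE 0.06, limma adjusted p = 0.0495), or 1.26-fold, and stood at the edge of the threshold.

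These calls rest on few arrays. Without K320E array 3, the adjusted p was 0.052 for Nop2, 0.109 for Bysl and 0.147 for Pdcd11, and 0 members were called, while the differences stayed at 0.52, 0.44 and 0.33. Nop2 passed in 7 of the 8 fits that leave out an array, Bysl in 2 and Pdcd11 in 0. Without control arrays 2 and 3, whose sex-linked transcripts disagree, the adjusted p was 0.049 for Nop2, 0.063 for Bysl and 0.140 for Pdcd11.

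The sequences around the transcription start of the called genes are shown because their RNA differed, beside that of Nop10, the member with the difference nearest to 0. Each runs from 170 bases before to 30 bases after the start, 5′ to 3′ on the gene's strand (RefSeq, GRCm38.p6). The Nop2 window lies at chr6:125131713-125131912 (+), that of Bysl at chr17:47611463-47611662 (-), that of Pdcd11 at chr19:47090596-47090795 (+) and that of Nop10 at chr2:112261756-112261955 (+). Capitals mark 2 motifs on either strand, CACGTG, the E-box that MYC and MAX bind, and CCGGAAG, a core bound by ETS factors, and the matches do not overlap each other.
Nop2: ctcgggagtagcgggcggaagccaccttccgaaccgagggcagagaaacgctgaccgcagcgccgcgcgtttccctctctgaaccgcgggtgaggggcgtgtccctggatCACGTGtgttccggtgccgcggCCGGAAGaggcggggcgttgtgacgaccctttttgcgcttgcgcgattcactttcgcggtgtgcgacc
Bysl: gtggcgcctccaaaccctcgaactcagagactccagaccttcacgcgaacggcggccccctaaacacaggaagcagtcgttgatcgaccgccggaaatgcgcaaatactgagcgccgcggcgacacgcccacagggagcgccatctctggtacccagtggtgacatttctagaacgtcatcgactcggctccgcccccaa
Pdcd11: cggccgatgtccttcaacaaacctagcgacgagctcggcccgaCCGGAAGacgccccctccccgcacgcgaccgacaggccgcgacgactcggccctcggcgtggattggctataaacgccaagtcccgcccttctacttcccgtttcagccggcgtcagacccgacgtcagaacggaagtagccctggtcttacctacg
Nop10: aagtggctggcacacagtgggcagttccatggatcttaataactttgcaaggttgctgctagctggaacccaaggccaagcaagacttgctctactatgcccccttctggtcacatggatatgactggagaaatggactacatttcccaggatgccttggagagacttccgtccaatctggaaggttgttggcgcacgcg

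The Nop2 window holds 1 E-box, with its leftmost base at -60 from the start, and 1 ETS core at -38. Pdcd11 has 1 ETS core at -127, and neither motif is in the Bysl or Nop10 letters shown. A full window of 300 bases (250 before and 50 after the start) was given for 39 of the 45 members and for 16990 of all genes tested, and a gene with several windows was counted once. The E-box stood in windows of 9 of the 39 members (23.1%) and of 9.19% of all genes. The ETS core stood in 13 of the 39 members (33.3%) and 12.7% of all genes. For TGATGNAAT, the C/EBP-ATF element through which ATF4 acts, the counts were 0 of 39 members and 0.93% of all genes. At so low a share, a count of 0 is likely for any list of this size. The member windows held a median of 21 CG dinucleotides, against 13 over all genes. Both the E-box and the ETS core contain a CG, and the shares were not matched for CG content. Among the 16 members with a window whose groups did not overlap, 5 had an E-box and 5 an ETS core; among the other 23, 4 had an E-box and 8 an ETS core. Such matches are letters in a window and not shown binding sites.

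**Figure D2:**
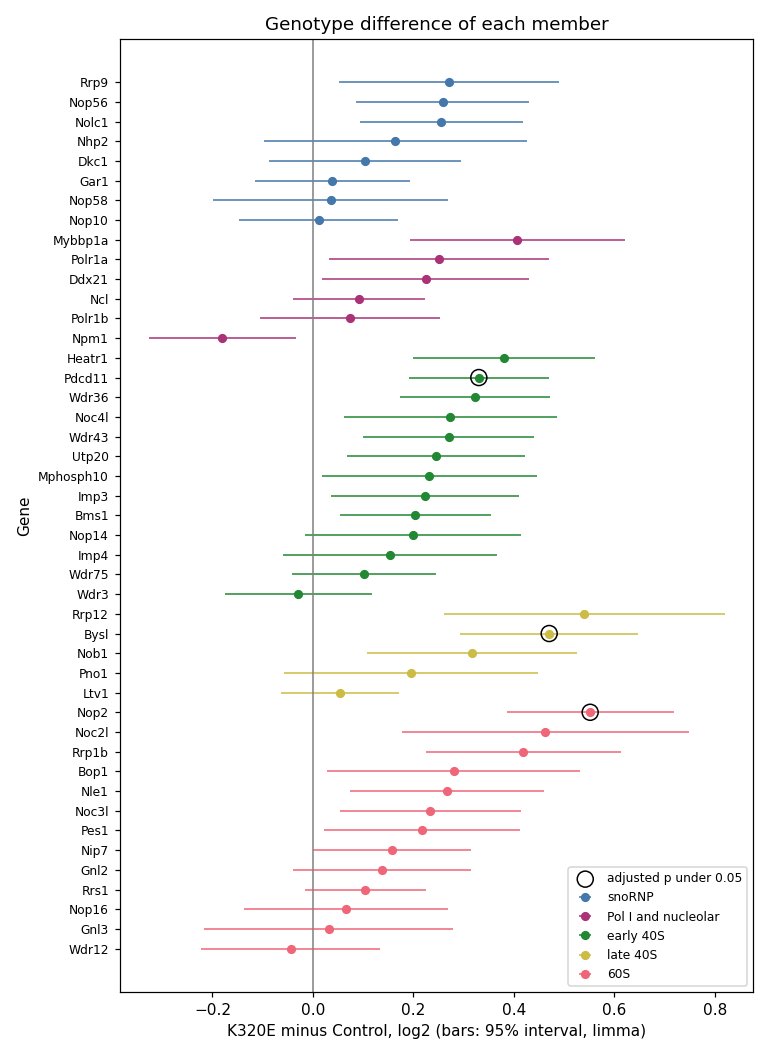
Difference of K320E minus control for each of the 45 factors (log2, horizontal axis) with its 95% interval from limma, coloured by role group. Circles mark Nop2, Bysl and Pdcd11, the genes past the threshold; Npm1 is the 1 gene whose whole interval lies below 0.

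Among the snoRNP proteins, 8 of 9 were measured, 0 passed the threshold, 3 were higher at an unadjusted limma p under 0.05, and the median difference was 0.13. All 8 differences were positive. Rrp9, the protein specific to the U3 snoRNP that starts small subunit assembly, measured 7.55, 7.11, 7.40 and 7.23 in K320E and 7.05, 7.17, 7.04 and 6.95 in controls. K320E array 2 lay below control array 2, and the difference was 0.27 (SE 0.10, limma adjusted p = 0.238). Nop56, a scaffold of the box C/D particles that place methyl groups on ribosomal RNA, measured 10.30, 10.08, 10.26 and 10.06 in K320E and 10.04, 9.88, 9.83 and 9.93 in controls. The groups did not overlap, and the difference was 0.26 (SE 0.08, limma adjusted p = 0.168). Its partner scaffold Nop58 ran from 10.22 to 10.74 in K320E and 10.41 to 10.55 in controls, with a difference of 0.04 (95% interval -0.20 to 0.27). Nop56 had other probe sets with a negative sign, with differences of -0.32 (SE 0.17) and -0.12 (SE 0.09). These were dimmer, with mean levels of 7.21 and 6.42 against 10.05 for the set used. With the mean over all its probe sets, the difference of Nop56 was -0.06.

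The H/ACA particles convert uridine to pseudouridine in ribosomal RNA, and the groups of all 4 of their proteins overlapped. The enzyme Dkc1 had a difference of 0.10 (95% interval -0.09 to 0.29), and its partners Nhp2 and Gar1 had 0.16 (-0.10 to 0.43) and 0.04 (-0.12 to 0.19). Nop10, the smallest of the partners, measured 11.13, 11.13, 11.24 and 11.17 in K320E and 11.24, 11.21, 11.21 and 10.98 in controls. Its groups overlapped throughout, with a difference of 0.01 (95% interval -0.15 to 0.17). Nolc1, a chaperone of both kinds of particle in the nucleolus, ran from 8.97 to 9.22 in K320E and from 8.71 to 8.86 in controls. Its groups did not overlap, with a difference of 0.26 (SE 0.07, limma adjusted p = 0.150).

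RNA polymerase I and the abundant nucleolar proteins had 0 of 6 genes past the threshold, 3 higher and 1 lower at an unadjusted limma p under 0.05, and a median of 0.16. Mybbp1a, a nucleolar protein that binds the polymerase and the precursor RNA, measured 8.94, 8.51, 8.74 and 8.52 in K320E and 8.25, 8.28, 8.30 and 8.25 in controls. All 4 K320E arrays were higher, with a difference of 0.41 (SE 0.10, limma adjusted p = 0.097). Polr1a, the largest subunit of polymerase I, measured 9.01, 8.72, 8.91 and 8.73 in K320E and 8.73, 8.58, 8.69 and 8.37 in controls. Those groups met at their edges, with a difference of 0.25 (SE 0.10, limma adjusted p = 0.271). The next subunit, Polr1b, had a difference of 0.07 (SE 0.08). The helicase Ddx21, which links polymerase I transcription to processing, ran from 9.53 to 9.82 in K320E and from 9.224 to 9.505 in controls, a difference of 0.22 (SE 0.09, limma adjusted p = 0.298). Its second probe set gave 0.46 (SE 0.09, limma adjusted p = 0.068 over all probe sets).

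Nucleolin and nucleophosmin, among the most abundant proteins of the nucleolus, had overlapping groups. Ncl, which binds the precursor RNA, had a difference of 0.09 (95% interval -0.04 to 0.22) at levels of 11.7 to 11.9 in K320E and 11.6 to 11.8 in controls. Npm1, a chaperone of the outer nucleolus, measured 12.34, 12.34, 12.35 and 12.50 in K320E and 12.44, 12.61, 12.63 and 12.57 in controls. Apart from K320E array 4, its K320E values lay below every control. The difference was -0.18 (SE 0.07, limma adjusted p = 0.241). The second Npm1 probe set also pointed down, at -0.13 (SE 0.10). Npm1 has many pseudogene copies in the mouse genome, so its level is uncertain.

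Among small subunit factors, the groups lay apart with K320E higher for 53.8% of the early and 60% of the late genes. The share was 46.2% for large subunit factors, 33.3% for the polymerase I group, 25% for snoRNP proteins and 5.5% over all genes. These shares were not tested against each other. Of the 13 early factors, which make up the processome that folds and cuts the first precursor, 1 (Pdcd11) rose past the threshold, 0 fell, 7 had groups that did not overlap, and the median was 0.23. Heatr1, a large scaffold that also takes part in polymerase I transcription, measured 9.25, 9.10, 9.41 and 9.23 in K320E and 8.96, 8.72, 8.87 and 8.92 in controls. Its groups did not overlap, with a difference of 0.38 (SE 0.08, limma adjusted p = 0.071). The WD-repeat protein Wdr36 followed at 0.32 (SE 0.07, limma adjusted p = 0.066), and Wdr43, another processome factor (10.73 to 10.96 in K320E and 10.45 to 10.65 in controls), had 0.27 (SE 0.08, limma adjusted p = 0.147). Noc4l, the partner of Nop14, had 0.27, and Utp20, another large scaffold, had 0.24, both with groups apart. Wdr75 had groups apart at a difference of 0.10, since its controls spanned only 9.80 to 9.81.

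The remaining early factors had overlapping groups. The U3-binding trio Mphosph10, Imp3 and Imp4 had differences of 0.23, 0.22 and 0.15. The GTPase Bms1 had 0.20 and Nop14 had 0.20. Wdr3, a WD-repeat protein of the same processome, measured 8.55, 8.48, 8.66 and 8.57 in K320E and 8.63, 8.47, 8.62 and 8.66 in controls. Its groups overlapped fully, with a difference of -0.03 (95% interval -0.18 to 0.12).

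Late small subunit factors carry the particle out of the nucleus and make the final cut. Among the 5 measured, 1 (Bysl) rose past the threshold, 0 fell, 3 had groups that did not overlap, and the median was 0.32. Rrp12, which takes part in export of the subunits, measured 7.69, 7.38, 7.34 and 7.11 in K320E and 6.63, 6.83, 6.98 and 6.93 in controls. Every K320E array was higher, but they spread widely, and the difference of 0.54 (SE 0.12) did not pass (limma adjusted p = 0.094). The endonuclease Nob1, which makes the last cut of the small subunit RNA, had 0.32 (SE 0.09, limma adjusted p = 0.164) with groups apart. Its binding partner Pno1 had 0.19 with overlapping groups (95% interval -0.06 to 0.45). Ltv1, which leaves the particle in the cytoplasm, measured 10.64, 10.62, 10.68 and 10.70 in K320E and 10.54, 10.59, 10.66 and 10.63 in controls. Its groups overlapped, with a difference of 0.05 (95% interval -0.06 to 0.17).

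Large subunit factors act on the precursor that yields the longer RNAs of the ribosome. Of 13 measured, 1 (Nop2) rose past the threshold, 0 fell, 6 had groups that did not overlap, and the median was 0.22. Noc2l, of the Noc complexes that accompany early large subunit particles, measured 9.92, 9.33, 9.36 and 9.34 in K320E and 8.999, 9.02, 9.10 and 8.97 in controls. All K320E arrays were higher and array 1 stood far above the other three, and the difference of 0.46 (SE 0.13) did not pass (limma adjusted p = 0.142). Its relative Noc3l had 0.23 with overlapping groups. Rrp1b, a nucleolar protein that also binds protein phosphatase, ran from 7.23 to 7.49 in K320E and from 6.81 to 7.04 in controls, a difference of 0.42 (SE 0.09, limma adjusted p = 0.066).

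The PeBoW complex, a trio needed for large subunit RNA processing, had unlike differences, which were not tested against each other. Bop1 had a difference of 0.28 with groups apart and Pes1 had 0.22 with overlapping groups. Their partner Wdr12 measured 8.28, 8.34, 8.41 and 8.52 in K320E and 8.37, 8.29, 8.53 and 8.55 in controls. Its groups overlapped, with a difference of -0.04 (95% interval -0.22 to 0.13). The pre-60S remodelling factor Nle1 had 0.27 and Rrs1, which helps place the 5S RNA particle, had 0.10, both with groups apart. The remaining factors had overlapping groups, with differences of 0.16 for Nip7, 0.14 for the GTPase Gnl2, 0.07 for Nop16 and 0.03 for Gnl3, the GTPase also called nucleostemin. No test of a difference between members was made.

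**Figure D3:**
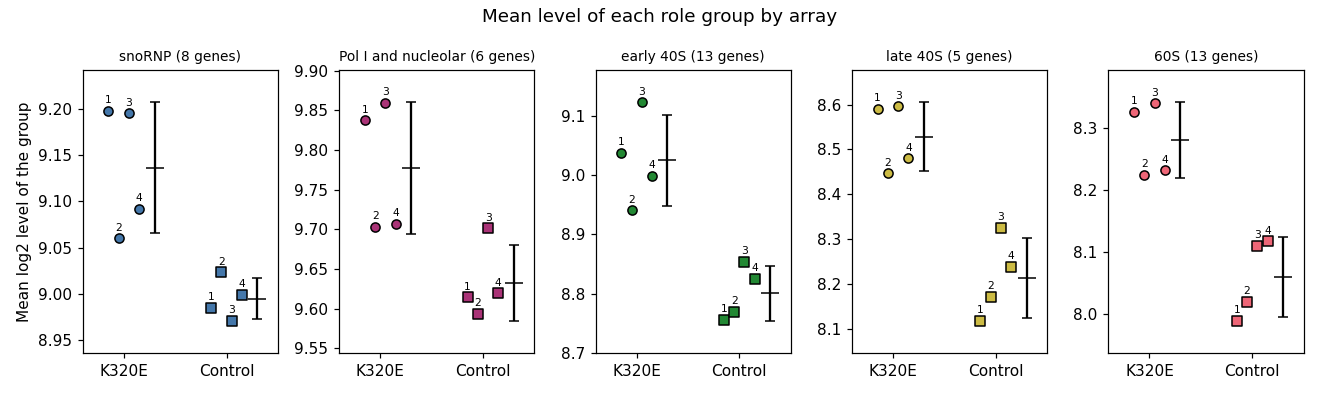
Mean log2 level of each role group on every array (points, numbered by replicate; circles K320E, squares control), with the mean and SD over 4 arrays beside them. Each panel has its own vertical axis, which does not start at 0; in all 5 panels the 4 K320E points lie above the 4 control points, and K320E arrays 1 and 3 lie above K320E arrays 2 and 4.

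Averaged over the 45 members, the arrays measured 8.92, 8.80, 8.95 and 8.83 in K320E and 8.62, 8.64, 8.71 and 8.69 in controls. The K320E mean was 8.87 ± 0.07 and the control mean 8.67 ± 0.04 (SD over 4 arrays each). Within K320E, arrays 1 and 3 were the higher ones in each role group. The mean of 11 skeletal muscle markers had the same order within K320E, at 7.48 and 7.94 on arrays 1 and 3 and 6.77 and 6.79 on arrays 2 and 4. Within controls it measured 6.37, 7.14, 7.02 and 6.31 on arrays 1 to 4, which is not the order of the members. The part of the muscle markers in the members' values was not tested. The genes behind the higher means differed. K320E array 1 was the highest of its group for 16 members, among them Noc2l, Rrp12, Bop1, Nhp2 and Mybbp1a, and the lowest for 16 others, among them Nop58, Gnl3, Mphosph10, Noc3l and Wdr12. K320E array 3 was the highest for 22 members and the lowest for 1.

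Other genes of the pathway were measured as well, and their difference from the members was not tested. Of 104 further assembly factors measured (snoRNP assembly, polymerase I, small and large subunit), 0 passed limma's threshold, 28 were higher and 1 lower at an unadjusted limma p under 0.05, and 79 had positive differences. Their median was 0.08. By list, the medians were 0.06 for 11 snoRNP factors, 0.03 for 13 polymerase I genes, 0.07 for 37 small subunit factors and 0.12 for 43 large subunit factors. The polymerase I list went both ways: 7 of 13 were positive, the groups lay apart with K320E higher for 2 (Polr1c at 0.16 and Ubtf at 0.18) and with K320E lower for 2 (Twistnb at -0.22 and Taf1d at -0.21), and none of these passed the threshold. The largest of these differences was in Eif6, which keeps the subunits from joining too early. Eif6 measured 9.48, 8.88, 8.997 and 8.87 in K320E and 8.32, 8.52, 8.60 and 8.46 in controls, a difference of 0.58 (SE 0.13, limma adjusted p = 0.095). Its groups did not overlap. In the other lists the largest were in the small subunit factor Wdr46 at 0.46, the snoRNP assembly helicase Ruvbl2 at 0.39 and the polymerase I subunit Polr1e at 0.31.

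The exosome and its helpers, which trim and degrade precursor RNA, had 0 of 13 genes past the threshold, 2 higher and 0 lower at an unadjusted limma p under 0.05, and a median of 0.08. Exosc10, the nuclear exonuclease of the exosome, had the largest difference, 0.22 (SE 0.05, limma adjusted p = 0.115). Cytosolic ribosomal proteins, the parts that the assembly factors put together, had a median near 0. Of 61 measured, 0 passed limma's threshold, 2 were higher and 7 lower at an unadjusted limma p under 0.05, 21 were positive, and the median was -0.04. The groups did not overlap for 1, Rpl34, which was higher in K320E by 0.39 (SE 0.10, limma adjusted p = 0.137), and 0 were apart in the lower direction. Rps13 had the largest difference of that list, -0.46 (SE 0.13, limma adjusted p = 0.153). It ran from 10.67 to 11.05 in K320E and from 10.98 to 11.51 in controls, so the groups overlapped. Many ribosomal protein genes have pseudogene copies, so their values are uncertain.

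**Figure D4:**
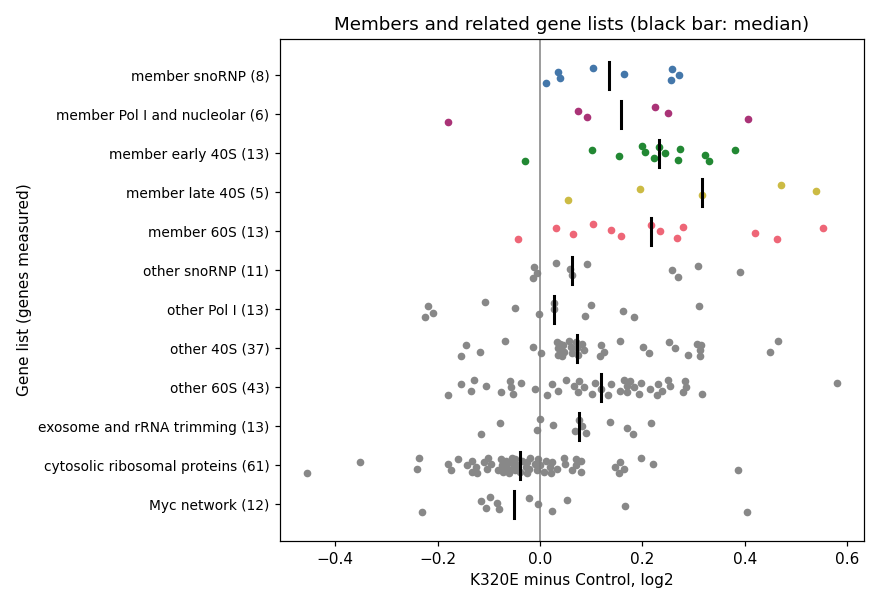
Difference of K320E minus control (log2, horizontal axis) of each gene in the 5 role groups (coloured) and in 7 related lists (grey), with the number of genes measured in brackets; vertical scatter within a row has no meaning. The black bars, the medians, lie between 0.13 and 0.32 for the role groups and between -0.05 and 0.12 for the related lists.

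Myc, the transcription factor best known for raising assembly factor genes, measured 9.30, 9.55, 9.62 and 9.21 in K320E and 8.69, 9.03, 9.21 and 9.13 in controls. K320E array 4 met control array 3, and the difference of 0.40 (SE 0.13) did not pass (limma adjusted p = 0.197). Of the 12 genes of the MYC network, 0 passed, 1 was higher and 0 lower at an unadjusted limma p under 0.05, and the median was -0.05.

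Markers of other cell types and of the cell cycle were examined on the same arrays. Skeletal muscle cells and fibroblasts lie below the epidermis, and whether such tissue was carried over was not tested. Of 18 hair shaft and matrix genes, 17 had negative differences, 0 passed limma's threshold and 10 were lower at an unadjusted p. Their mean ran from 7.05 to 7.42 in K320E and from 7.52 to 8.78 in controls, with control array 4 the highest. With that mean as a covariate the median of the members was 0.20, but 0 of the 45 and 1 of all genes passed limma's threshold, the adjusted p of Nop2 being 0.250. Skeletal muscle genes were positive in 11 of 11, with means of 6.77 to 7.94 in K320E and 6.31 to 7.14 in controls. Langerhans and dendritic cell markers were negative in 6 of 6, of which 2 (H2-Aa and H2-Ab1) fell past limma's threshold. Their means were 6.51 to 6.62 in K320E and 6.90 to 7.03 in controls. The groups of Cd207 (-0.07), Itgax (-0.03) and H2-Eb1 (-0.19) overlapped, the first at a mean level of only 5.6. The mean of 21 cell cycle genes ran from 8.76 to 8.94 in K320E and from 8.67 to 8.98 in controls, over genes that went both ways. None of the 21 passed limma's threshold, 3 (Aurka, Aurkb and Cdc20) were higher and 2 (Rrm2 and Mcm6) lower at an unadjusted p, and the groups of Aurka and Cdk1 lay apart, higher in K320E. Melanocyte markers were negative in 7 of 7, with 0 past limma's threshold and 3 lower at an unadjusted p. Among 4 T cell markers, Thy1 rose by 0.69 (SE 0.13, limma adjusted p = 0.0495), while Cd3g and Cd3d had differences of -1.19 and -0.75 with groups apart and did not pass. Fibroblast markers were positive in 6 of 7, endothelial markers in 5 of 6 and mast cell markers in 7 of 7. Sebocyte markers were positive in 2 of 8, and neutrophil and macrophage markers in 5 of 9. In each of these lists 0 passed limma's threshold. The groups of Elovl3 (-1.23), a sebocyte marker, lay apart, lower in K320E. Those of Cxcr2 (1.32) and Cd68 (0.51), of the neutrophil and macrophage list, lay apart, higher in K320E. The hair list mean did not overlap between the groups, so the fit with it as a covariate cannot separate that list from genotype. The part of these lists in the members' differences was not tested. Basal keratinocyte genes, 4 of 6 positive, averaged 10.53 to 10.76 in K320E and 10.34 to 10.53 in controls. Of them 0 passed limma's threshold, and 4 were higher and 1 lower at an unadjusted limma p under 0.05. The groups of Krt14 (0.27), Itga6 (0.32) and Itgb4 (0.77) lay apart, higher in K320E. Those of Krt15 (-0.31) lay apart, lower in K320E. The part of the basal genes was not tested.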

How the data were processed

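RNA of newborn epidermis was measured on 8 arrays, and the authors deposited log2 intensities of 33793 probe sets. How they were background-corrected, summarised and normalized is not stated in these sources; the labels give the RNA and labelling kits. Values were used as they stand. Gene names came from GEO's platform annotation: 23521 probe sets have 1 symbol, 1814 several, and 8458 are unnamed here. Each gene was read from its single-gene probe set of highest mean, which gave 22180 genes. A linear model with genotype as its only term was fitted to all 8 arrays in limma (version 3.58.1, under R version 4.3.3) with eBayes moderation, with Benjamini-Hochberg adjustment over all genes and a threshold of 0.05. Differences are K320E minus control with limma's SE. The fit was tested on simulated data. The number of arrays limits the precision. The members and lists (26 lists, 356 of 395 entries measured, 3 by an older name) were chosen with earlier results of these data known. Values on every array are given for called members and for the 2 highest and the lowest of each role group, and the gene with the largest difference is named in each related list. Same-numbered arrays were not paired: their deviations from the group means correlated at 0.05, -0.06, 0.08 and 0.14. Alternatives were other normalizations, probe set rules, a filter on dim genes, variance priors, array weights, covariates, a fold threshold and fewer arrays.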

Additional observations from a re-analysis of the deposited data

Results flagged for a closer look

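In groups of 4 arrays, a value was picked out where its gap to the nearest of the others exceeded Dixon's 95% critical share of the group's whole range. Of 132 groups examined, 8 held such a value, and chance gives about 1 in 20. For 4 of them K320E array 1 was the one apart. It was the highest for Noc2l (9.92, next 9.36), Bop1 (7.27, next 6.84) and Nolc1 (9.22, next 9.01), and the lowest for Mphosph10 (8.72, next 9.04). K320E array 3 was the highest for Ddx21 (9.82, next 9.57) and K320E array 4 for Npm1 (12.50, next 12.35). Among controls, array 3 was the highest for Bysl (7.40, next 7.21) and array 4 the lowest for Nop10 (10.98, next 11.21).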

How the results depend on the processing

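The median difference of the 45 members stayed between 0.18 and 0.23 when single arrays were left out, and 38 to 43 members were positive over all settings run. Called members were fewer than the 3 reported under several settings. There was 1 with the replicate number as a block, with the Y-linked mean as a covariate and without control arrays 2 and 3 together, and there were 0 with the hair list covariate and with a fold of at least 1.5. Leaving out single arrays gave 0 to 2. Over all genes, the 152 higher genes became 84 with the replicate block, 97 with the fold limit, 1 with the hair covariate and 44 to 147 without single arrays. The 43 lower genes became 66 without the dimmest 33.3% of genes, 25 with the Y-linked covariate, 14 with the fold limit, 0 with the hair covariate and 9 to 33 without single arrays. With the mean over probe sets the snoRNP median was 0.071 and Nop56 was -0.060. Members near 0 changed sign. With the hair covariate Gar1 was -0.074, Nop10 -0.13, Nop16 -0.066, Wdr3 0.046 and Wdr12 0.052. Quantile normalization gave Nop10 -0.0020, and Nop58 was -0.0028 without control arrays 2 and 3. Without single arrays, Gnl3 ran from -0.048 to 0.099, Nop10 from -0.049 to 0.038, Nop16 from -0.0053 to 0.11, Nop58 from -0.047 to 0.13 and Wdr3 from -0.071 to 0.00049. The causes were not tested. Of 900 values of single members under alternatives, 855 kept their direction and side of the threshold, 30 no longer passed it and 15 changed sign. Only the 3 called members could lose a call, so all 30 are theirs. Apart from the fold limit, Nop2 passed in 17 of 19 alternatives, Bysl in 9 and Pdcd11 in 4.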
